A study of Mus musculus with 14 samples.

Results

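The 39 genes described here are interferon-stimulated genes, taken as the lines of the deposited count table whose mouse gene symbol is on a list of 39 names. All 39 were found among the 26683 symbols of the table, and all 39 were among the 13427 genes that had enough counts to be tested. The rule used names and no measured values. RNA was sequenced from splenic CD4 T cells of female mice aged 8 months. TC mice (B6.NZM-Sle1NZM2410/AegSle2NZM2410/AegSle3NZM2410/Aeg/LmoJ) are a congenic, lupus-prone strain that carries the Sle1, Sle2 and Sle3 susceptibility intervals, and C57BL/6J mice (B6) were their controls. All mice were of the same sex and age, and no treatment is named. Follicular helper T cells (Tfh) were sorted as CD4+CD44+CD162lo/-PD-1+ cells and naive T cells (Tn) as CD4+CD44- cells. The Tfh gate names no marker that would leave out regulatory T cells. There were 3 TC Tfh, 4 B6 Tfh, 3 TC Tn and 4 B6 Tn libraries, with both cell types from each of 3 TC and 4 B6 mice. TC mice carry all 3 intervals together, so a difference between the strains cannot be assigned to any single one of them.

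Interferon-stimulated genes are switched on when a cell senses interferon. Type I interferons bind a receptor made of IFNAR1 and IFNAR2, whose kinases JAK1 and TYK2 set off a relay of transcription factors. A complex that includes STAT2 and IRF9 binds the interferon-stimulated response element (ISRE) in promoters, while the response to interferon-gamma acts through the GAS element. The proteins made sense viral RNA, degrade or edit RNA, attach the ubiquitin-like protein ISG15, or block viral assembly, and a raised level of such transcripts in blood cells is well known in human systemic lupus erythematosus.

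RefSeq promoter windows (GRCm38.p6, 250 bases before to 50 bases after the annotated start) were matched by symbol for 30 of the 39 genes. The ISRE core, searched as GAAA, any 2 bases and GAAA again on both strands with overlapping matches counted, was found in any window of 14 of those 30 (46.7%), against 1079 of 27025 genes with a window (3.99%). The GAS core, searched as TTCNNNGAA, was found in 7 of 30 (23.3%), against 9.55% of all genes. The letters are shown for 6 genes that represent the different patterns described below, each given 5′ to 3′ on the strand of the gene, with the bases of ISRE core matches in capitals. Where a match lies on the opposite strand it reads as TTTC, any 2 bases and TTTC.
Isg15, chr4:156200857-156200914 (minus strand): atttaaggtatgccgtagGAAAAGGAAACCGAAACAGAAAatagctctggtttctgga
Ifit1, chr19:34640767-34640831 (plus strand): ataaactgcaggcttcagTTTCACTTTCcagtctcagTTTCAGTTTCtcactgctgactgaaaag
Ifit3, chr19:34583355-34583434 (plus strand): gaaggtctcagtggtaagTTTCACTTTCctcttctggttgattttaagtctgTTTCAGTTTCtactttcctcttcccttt
Bst2, chr8:71537569-71537620 (minus strand): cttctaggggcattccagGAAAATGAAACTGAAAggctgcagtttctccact
Oas1a, chr5:120907526-120907563 (minus strand): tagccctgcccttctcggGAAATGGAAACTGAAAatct
Phf11b, chr14:59341353-59341398 (minus strand): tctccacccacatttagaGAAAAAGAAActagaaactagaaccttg
The Isg15 stretch holds 3 overlapping matches, and those of Ifit1 and Ifit3 hold 2 separate ones each. The Oas1a and Bst2 stretches each hold 2 overlapping matches, although Oas1a was higher in Tfh than in Tn and Bst2 was lower. Of the 7 genes higher in Tfh in both strains, 5 had a window and 4 of these held the core. Of the 17 genes lower in Tfh in both strains, 13 had a window and 4 of these held it. A match is a run of letters and was not tested for binding.

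Library totals ran from 15162309 to 20191558 counts, and levels are given as CPM, read counts set relative to the TMM-scaled library total. One label field of the Tn samples names follicular helper cells while their titles and cell type say Tn, and the data go with the titles: 7 Tfh markers summed to 2070 to 2780 CPM in the Tfh libraries against 143 to 173 CPM in the Tn libraries. Summed CD4 T cell markers (7 genes) stood at 4600 to 7390 CPM in every library. Summed B cell markers (8 genes, 4 of 5 tested higher in Tfh in each strain) stood at 71.9 to 99.7 CPM in TC Tfh and 106 to 117 CPM in B6 Tfh, against 1.21 to 2.23 CPM in TC Tn and 1.4 to 2.48 CPM in B6 Tn. The 4 regulatory T cell markers, all higher in Tfh in each strain, summed to 1810 to 2340 CPM in TC Tfh and 1280 to 1570 CPM in B6 Tfh, against 80.4 to 124 CPM in Tn. Of the 6 plasmacytoid dendritic cell markers, Siglech and Klk1 had no counts in any group, and the list also holds Bst2 itself. These bulk libraries cannot tell fewer cells of a type from less RNA per cell. The part of these other cells in the differences below was not tested.

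Set per kilobase of exon, so that genes could be ranked against each other, Ifi27l2a was the highest of the 39 in all 4 groups. It encodes a small interferon-induced membrane protein and averaged 300.0 CPM per kb in TC Tfh, 498 in B6 Tfh, 173 in TC Tn and 280.0 in B6 Tn. Sp100, a nuclear body component, and Samd9l, a restriction factor for poxviruses, came next or close to it, with Sp100 at 53.4, 53.9, 97.5 and 96.1 CPM per kb in the same groups. At the other end, Oas2 ranked last of the 39 in both Tfh groups (0.188 CPM per kb in TC and 0.222 in B6) but held rank 19 in TC Tn (18.8 CPM per kb) and rank 25 in B6 Tn (11.1 CPM per kb). Ifi44 was last in both Tn groups. Neighbours in this order were not tested against each other.

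**Figure D1:**
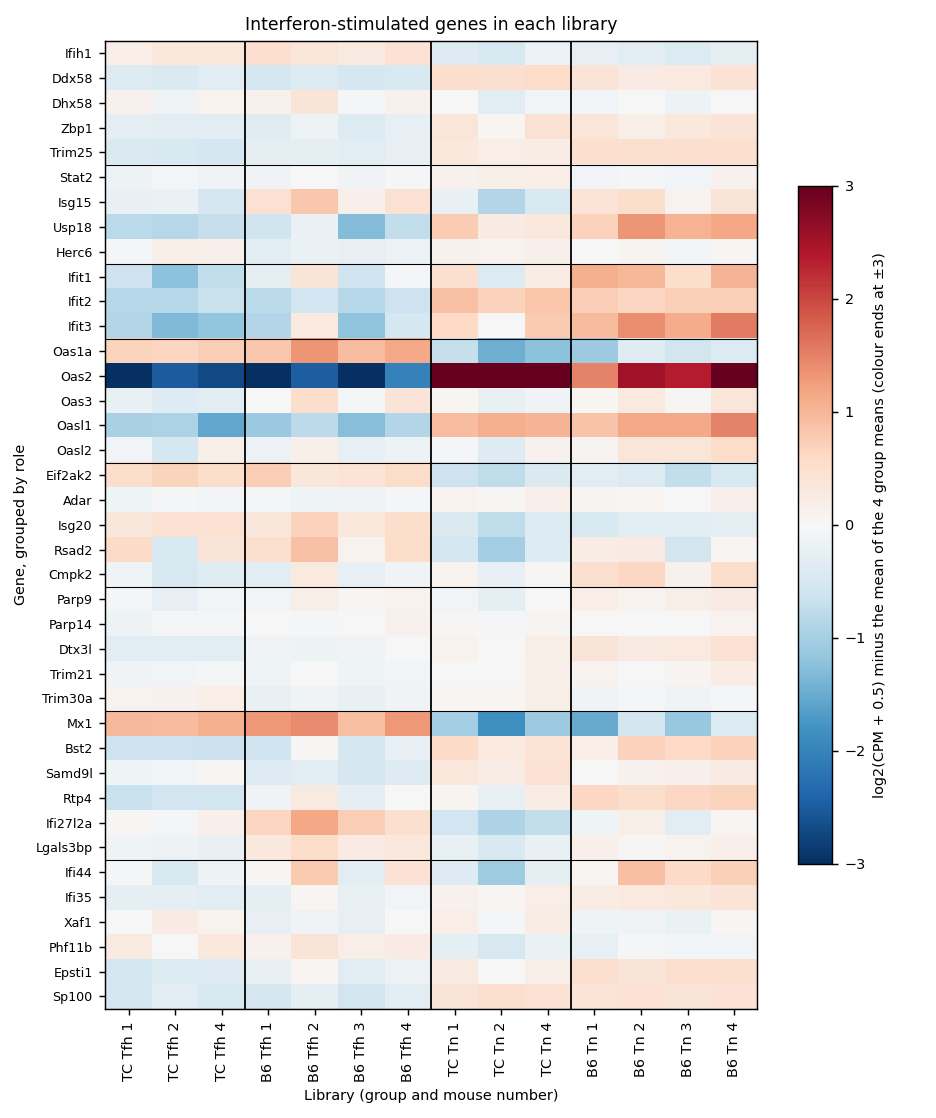
Level of each of the 39 genes (one line each, grouped by role between horizontal lines) in each of the 14 libraries (columns, grouped by vertical lines). Colour gives log2(CPM + 0.5) minus the mean of the 4 group means, with red higher and blue lower. Oas2 is near its lowest in all Tfh libraries and highest in all Tn libraries, while Mx1, Oas1a and Eif2ak2 show the opposite order.

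Between the cell types, the genes moved both ways. Oas2, an enzyme that makes the second messenger 2-5A from double-stranded RNA, was almost absent from Tfh, at 0.457 to 1.14 CPM in TC Tfh against 77.9 to 93.0 CPM in TC Tn. Mx1, the dynamin-like antiviral GTPase, had the opposite order, at 17.5 to 18.9 CPM in TC Tfh against 2.10 to 4.06 CPM in TC Tn. In TC mice 8 of the 39 genes were higher and 18 lower in Tfh (66.7% called), against a background of 66.1% of all genes tested. In B6 mice 9 were higher and 21 lower (76.9% called), against 70.3% of all genes tested. Calls were made at a Benjamini-Hochberg adjusted p under 0.05 in edgeR's quasi-likelihood test over all 13427 genes. The share called was thus near the background in TC and somewhat above it in B6. The share called higher was 20.5% in TC and 23.1% in B6, against 33.7% and 36.9% of all genes, and the share called lower was 46.2% in TC and 53.8% in B6, against 32.4% and 33.3% of all genes. The median log2 fold change of the 39 was -0.19 in TC and -0.25 in B6, against -0.0094 and 0.018 over all genes.

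Groups did not overlap for 27 of the 39 genes in TC (8 higher and 19 lower in Tfh) and for 26 in B6 (8 higher and 18 lower). Over all genes, 71.3% did not overlap in TC (35.7% higher and 35.6% lower in Tfh) and 63.9% in B6 (33.8% higher and 30.0% lower). Most calls of the 39 genes were made in both strains, but shared calls were not counted over all genes. Isg20, Mx1, Oas1a, Ifih1, Eif2ak2, Ifi27l2a and Phf11b were higher in both strains, which is 7 of 8 in TC and 7 of 9 in B6. There were 17 genes lower in both strains, of 18 in TC and 21 in B6, and none was called in opposite directions. Without TMM scaling, using library totals alone, the median of all genes in B6 moved to 0.152 and in TC to 0.0989, and the share of higher genes among all calls became 65.6% in place of 52.6% in B6 and 61.4% in place of 51.0% in TC. The 39 genes then gave 11 higher and 17 lower in each strain. Adar lost its call in both strains under that scaling, and Oasl2, Trim21 and Herc6 lost theirs in B6.

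**Figure D2:**
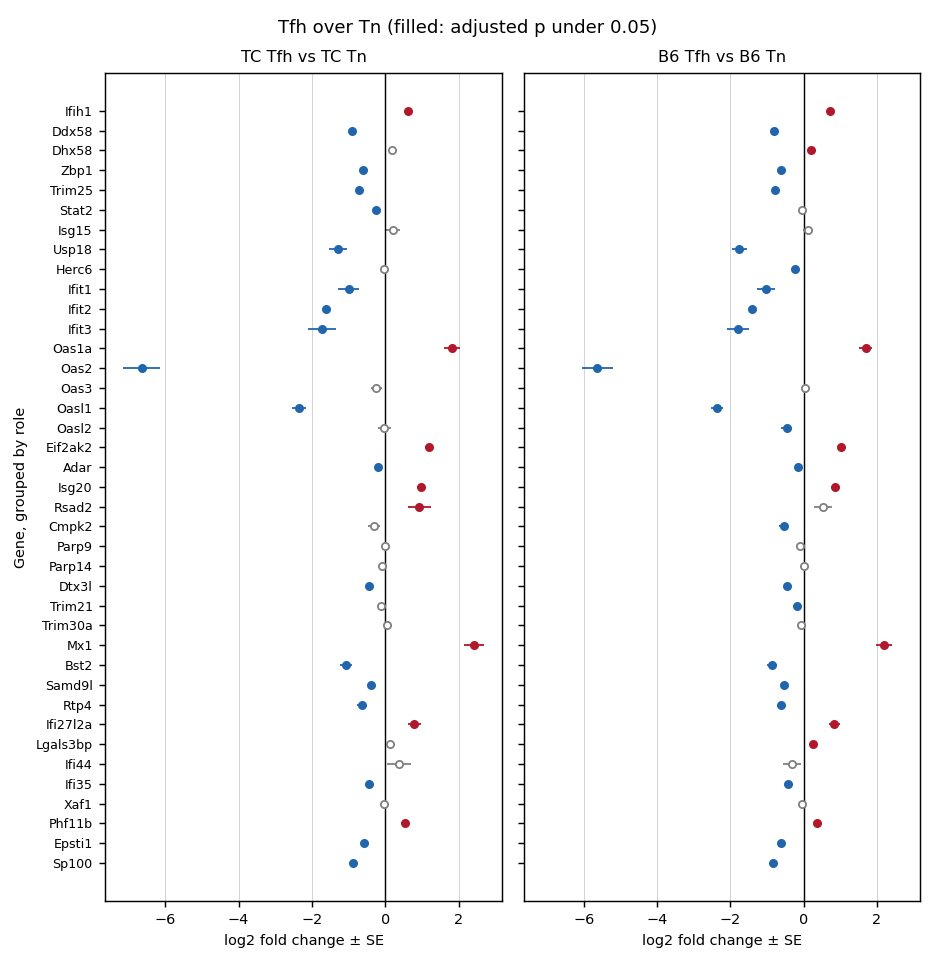
Log2 fold change of Tfh over Tn (horizontal axis, points with SE bars) for each of the 39 genes (grouped by role) in TC (left) and B6 (right). Filled points passed an adjusted p of 0.05, red higher and blue lower in Tfh. Oas2 lies farthest left in both panels (-6.64 in TC and -5.63 in B6) and Mx1 farthest right (2.42 and 2.19).

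The cytosolic RNA sensors were split. Ifih1 encodes MDA5, which detects long double-stranded RNA. It had 58.4, 63.0 and 63.1 CPM in TC Tfh and 38.7, 36.2 and 45.1 CPM in TC Tn. The B6 values were 71.8, 66.0, 61.8 and 68.7 CPM in Tfh and 43.0, 40.5, 38.5 and 41.4 CPM in Tn. All Tfh libraries were above all Tn libraries, 1.54-fold in TC (edgeR adjusted p = 1.16e-06) and 1.64-fold in B6 (adjusted p = 1.79e-08). Ddx58 encodes RIG-I, the sensor of short RNA with a free triphosphate end. It had 118, 114 and 122 CPM in TC Tfh and 219.8, 212 and 225 CPM in TC Tn. B6 mice gave 105, 114, 107 and 111 CPM in Tfh and 199, 183, 188 and 206 CPM in Tn. Here every Tn library was above every Tfh library. Ddx58 was 1.86-fold lower in Tfh in TC (log2 -0.90, SE 0.055, adjusted p = 1.08e-10) and 1.77-fold lower in B6 (adjusted p = 2.95e-11).

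Trim25, the ubiquitin ligase that helps to activate RIG-I, was lower in Tfh as well. It had 80.1, 78.0 and 75.5 CPM in TC Tfh and 135, 123 and 125 CPM in TC Tn. Among B6 libraries there were 88.9, 89.1, 85.8 and 91.2 CPM in Tfh and 152, 149.7, 153 and 152 CPM in Tn. The groups were far apart for their spread, and Tfh were 1.64-fold lower in TC (adjusted p = 3.88e-10) and 1.71-fold lower in B6 (adjusted p = 1.00e-11). Zbp1, a sensor of Z-form nucleic acid, was also lower in Tfh in both strains, at 114 to 118 CPM in TC Tfh against 149 to 198 CPM in TC Tn. Dhx58 encodes LGP2, a regulator of the other sensors. It had 25.6 to 29.9 CPM in TC Tfh against 21.6 to 27.2 in TC Tn, and 27.0 to 35.9 CPM in B6 Tfh against 24.8 to 27.8 in B6 Tn, and was called higher in Tfh only in B6 (adjusted p = 0.0425). That call was lost when B6 Tfh 2, B6 Tn 1 or B6 Tn 3 was left out (adjusted p = 0.119, 0.0860 and 0.118). With mice as blocks Dhx58 was called in TC too (adjusted p = 0.0243), and the difference between the strains did not pass its own test.

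Among the 4 genes of signalling and of the ISG15 system, Usp18 had the largest difference between cell types. It encodes the protease that removes ISG15 and dampens the interferon receptor. Usp18 had 10.6 to 11.8 CPM in TC Tfh against 23.0 to 33.1 CPM in TC Tn. In B6 it had 7.63 to 16.8 CPM in Tfh against 31.9 to 49.7 CPM in Tn. Tfh were thus lower without overlap in both strains, 2.42-fold in TC (adjusted p = 0.000526) and 3.40-fold in B6 (adjusted p = 5.14e-06). Isg15 itself showed no call between cell types, with log2 fold changes of 0.20 (SE 0.18) in TC and 0.12 (SE 0.14) in B6. Stat2, a transcription factor activated at the interferon receptor, had 88.3, 94.7 and 89.96 CPM in TC Tfh and 106, 110.5 and 112 CPM in TC Tn. It had 90.7, 96.7, 90.7 and 95.4 CPM in B6 Tfh and 92.5, 95.7, 92.7 and 107 CPM in B6 Tn. All TC Tfh libraries were below the TC Tn ones by a small amount (log2 -0.27, adjusted p = 0.000621), while the B6 groups overlapped. Herc6, the main ligase for ISG15 in mice, was lower in Tfh in B6 (log2 -0.25, adjusted p = 0.000824) and had a log2 fold change of -0.037 in TC (SE 0.067).

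The 3 genes of the IFIT cluster described here, whose proteins bind viral RNA ends or inhibit translation, were all lower in Tfh. They lie together on chromosome 19 within chr19:34550694-34650009 (GENCODE M21, mm10). Ifit2 had 36.0, 35.9 and 40.8 CPM in TC Tfh and 120.0, 106 and 117 CPM in TC Tn. In B6 it had 37.1, 43.9, 35.8 and 42.6 CPM in Tfh and 109, 102, 108 and 108 CPM in Tn. No library crossed between the groups, and Tfh were 3.04-fold lower in TC (log2 -1.60, SE 0.078, adjusted p = 4.53e-12) and 2.68-fold lower in B6 (adjusted p = 1.83e-12). Ifit1 had 14.5, 9.28 and 13.3 CPM in TC Tfh and 31.4, 16.9 and 26.1 CPM in TC Tn. The B6 values were 18.4, 29.6, 14.7 and 21.6 CPM in Tfh and 48.3, 45.5, 32.5 and 45.7 CPM in Tn. These were again apart in both strains, with Tfh 2.00-fold lower in TC (adjusted p = 0.0110) and 2.04-fold lower in B6 (adjusted p = 0.00207). Ifit3 had 3.47 to 4.97 CPM in TC Tfh against 9.41 to 16.9 CPM in TC Tn, and 3.81 to 11.8 CPM in B6 Tfh against 18.8 to 29.0 CPM in B6 Tn. Its fold changes were the largest of the 3 genes, 3.32-fold lower in TC (adjusted p = 0.00159) and 3.50-fold lower in B6 (adjusted p = 0.000153), but its near-identical neighbour Ifit3b makes its count uncertain.

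Oas2 and Oas1a, both of the 2-5A synthetase family, went opposite ways between the cell types. Oas2 (chr5:120730333-120749853), Oas3 (chr5:120753098-120777661) and Oas1a (chr5:120896256-120907521) lie on the minus strand of chromosome 5. Oas2 had 0.457, 1.14 and 0.915 CPM in TC Tfh and 79.6, 77.9 and 93.0 CPM in TC Tn. B6 mice gave 0.507, 1.15, 0.523 and 1.77 CPM in Tfh and 25.4, 52.5, 46.8 and 72.5 CPM in Tn. Every Tfh library had 1.77 CPM or less, where a floor of 3 counts is 0.149 to 0.198 CPM, and every Tn library had 25.4 CPM or more. Fitted Tfh levels were 99.98-fold lower in TC (log2 -6.64, SE 0.50, adjusted p = 2.91e-07) and 49.6-fold lower in B6 (log2 -5.63, SE 0.42, adjusted p = 2.21e-07).

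Oas1a had 30.2, 30.1 and 32.0 CPM in TC Tfh and 11.5, 6.55 and 7.80 CPM in TC Tn. Among B6 libraries there were 33.6, 48.2, 36.4 and 42.2 CPM in Tfh and 8.56, 14.5, 12.7 and 14.04 CPM in Tn. It was higher in every Tfh library than in any Tn library, 3.54-fold in TC (adjusted p = 3.99e-06) and 3.23-fold in B6 (adjusted p = 8.51e-07). Its close copy Oas1g makes the count uncertain. Oas3, which lies between Oas2 and Oas1a, had log2 fold changes of -0.24 (SE 0.15) in TC and 0.045 (SE 0.12) in B6, neither called. With mice as blocks, Oas3 was called lower in Tfh in TC (adjusted p = 0.00536). Oasl1, a family member without synthetase activity, had 2.97, 3.03 and 1.83 CPM in TC Tfh and 12.5, 14.1 and 13.4 CPM in TC Tn. In B6 it had 2.63, 3.45, 2.30 and 3.22 CPM in Tfh and 11.9, 14.5, 14.6 and 18.8 CPM in Tn. Tfh were lower in all libraries, by 5.13-fold in TC (adjusted p = 9.16e-09) and 5.14-fold in B6 (adjusted p = 5.17e-10). Oasl2, next to it, was called lower in Tfh in B6 (log2 -0.46, adjusted p = 0.0129), and had a log2 fold change of -0.026 in TC (SE 0.18).

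**Figure D3:**
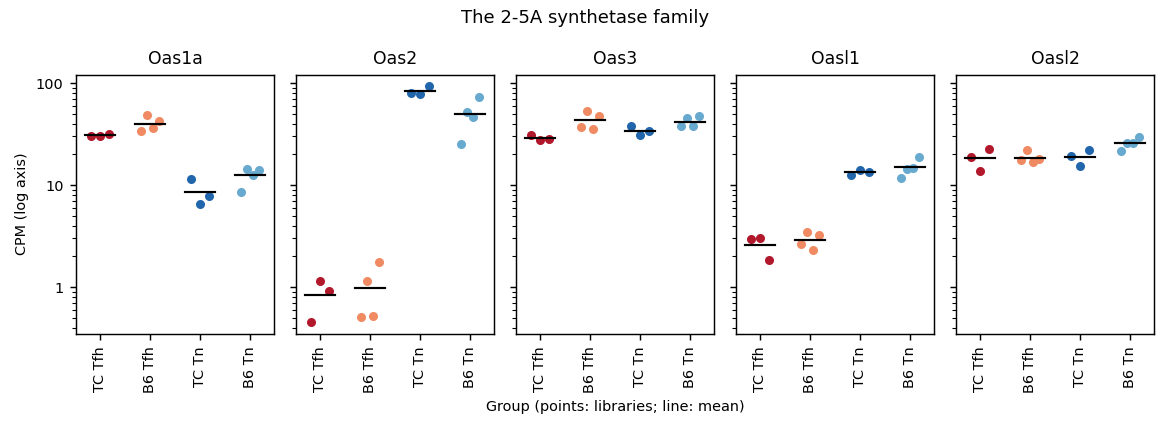
Level (CPM, log axis) of 5 genes of the 2-5A synthetase family in each library (points), with the group mean as a line, for TC Tfh, B6 Tfh, TC Tn and B6 Tn. Oas2 and Oasl1 are lower in all Tfh libraries than in any Tn library, Oas1a is higher, and Oas3 stays between 27.5 and 52.8 CPM in all 4 groups.

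Of 5 enzymes that act on RNA and nucleotides, 3 were higher and 1 lower in Tfh in TC, and 2 were higher and 2 lower in B6. Eif2ak2 encodes PKR, which halts translation on double-stranded RNA. It had 53.8, 59.9 and 54.6 CPM in TC Tfh and 24.3, 21.8 and 27.4 CPM in TC Tn. The B6 values were 62.8, 47.9, 50.3 and 55.5 CPM in Tfh and 30.0, 28.2, 22.2 and 27.1 CPM in Tn. Tfh were above Tn in all libraries, 2.29-fold in TC (log2 1.19, SE 0.11, adjusted p = 1.15e-07) and 2.01-fold in B6 (adjusted p = 9.60e-08). Isg20, an exonuclease for single-stranded RNA, had 31.9, 34.5 and 34.5 CPM in TC Tfh and 18.4, 14.6 and 18.6 CPM in TC Tn. B6 mice gave 31.9, 40.5, 31.3 and 36.3 CPM in Tfh and 17.7, 19.7, 19.96 and 20.4 CPM in Tn. The groups were again apart, 1.95-fold higher in Tfh in TC (adjusted p = 2.58e-07) and 1.80-fold in B6 (adjusted p = 1.21e-07).

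Rsad2 encodes viperin, which makes a chain-terminating nucleotide. It had 5.12 to 10.9 CPM in TC Tfh against 3.24 to 5.35 in TC Tn, and 7.79 to 13.6 CPM in B6 Tfh against 4.74 to 8.68 in B6 Tn, so the ranges overlapped in both strains. It was called higher in Tfh in TC (log2 0.93, SE 0.30, adjusted p = 0.0139), and the call was lost without TC Tfh 1 (adjusted p = 0.0536) or TC Tn 2 (adjusted p = 0.0627). With mice as blocks it was called in B6 as well (log2 0.52 without the block, adjusted p = 0.000364 with it). Its neighbour Cmpk2, a nucleotide kinase, was lower in Tfh in B6 (log2 -0.54, adjusted p = 0.00257), and with the block also in TC (adjusted p = 0.0201). Adar, the adenosine deaminase that edits double-stranded RNA, was slightly lower in Tfh in both strains (log2 -0.19 in TC and -0.17 in B6), and 1365 of its exon bases overlap Chrnb2 on the opposite strand.

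Among the ADP-ribosylation and TRIM genes, Dtx3l, the ubiquitin ligase partner of PARP9, was lower in Tfh in both strains, 1.36-fold in TC and 1.36-fold in B6. Its values were 151, 150.0 and 150.3 CPM in TC Tfh and 205, 191 and 216 CPM in TC Tn. In B6 they were 178, 172, 177 and 190.4 CPM in Tfh and 250.3, 231, 236 and 261 CPM in Tn. All Tfh values were below all Tn values (adjusted p = 3.40e-06 in TC and 3.44e-07 in B6). Parp9 shares 458 exon bases with it on the opposite strand. Parp9 had 102, 89.4 and 99.97 CPM in TC Tfh and 99.96, 87.1 and 105 CPM in TC Tn. Among B6 libraries there were 100.2, 119, 109.9 and 114 CPM in Tfh and 120.4, 114, 119 and 124 CPM in Tn. These overlapped between cell types in both strains, and it was called in neither (log2 -0.0032 in TC and -0.11 in B6), although with mice as blocks it was called lower in B6 Tfh (adjusted p = 0.0457). Trim21, a cytosolic antibody receptor, was lower in B6 Tfh (log2 -0.18, adjusted p = 0.00532). Trim30a was not called between cell types (log2 0.049 in TC and -0.078 in B6). Parp14, at 249.3 to 272 CPM in TC Tfh and 270.1 to 301 CPM in B6 Tfh, passed the test in none of the 4 comparisons of groups.

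Genes of membrane and restriction factors went both ways. Mx1 had 17.8, 17.5 and 18.9 CPM in TC Tfh and 4.06, 2.10 and 3.84 CPM in TC Tn. In B6 it had 22.3, 24.5, 16.9 and 22.5 CPM in Tfh and 2.79, 5.90, 3.75 and 6.51 CPM in Tn. It was higher in all Tfh libraries, 5.36-fold in TC (log2 2.42, SE 0.27, adjusted p = 1.54e-06) and 4.57-fold in B6 (adjusted p = 3.83e-07). Mx1 of C57BL/6J is known to carry a deletion of coding exons, and these gene counts do not show which exons the reads came from. Ifi27l2a had 138, 129 and 149 CPM in TC Tfh and 90.5, 69.8 and 80.5 CPM in TC Tn. The B6 values were 209.5, 301, 224 and 187 CPM in Tfh and 122, 151, 105 and 141 CPM in Tn. Tfh were higher without overlap in both strains, 1.73-fold in TC (adjusted p = 0.00178) and 1.78-fold in B6 (adjusted p = 0.000311), with the similar gene Ifi27l2b making the count uncertain. Bst2, which encodes tetherin, had 23.7 to 24.3 CPM in TC Tfh against 45.8 to 56.3 CPM in TC Tn, and 24.6 to 38.3 CPM in B6 Tfh against 43.2 to 60.6 CPM in B6 Tn. Tfh were 2.11-fold lower in TC (adjusted p = 4.75e-05) and 1.83-fold lower in B6 (adjusted p = 5.28e-05). Rtp4, a chaperone of receptors, and Samd9l were lower in Tfh in both strains, by log2 values of -0.65 and -0.39 in TC. Lgals3bp, a secreted glycoprotein, was called higher in Tfh in B6 (log2 0.25, adjusted p = 0.00217) and had a log2 fold change of 0.13 in TC (SE 0.074).

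Of the remaining genes, Sp100 was lower in Tfh. It had 381, 439.8 and 389 CPM in TC Tfh and 714, 762 and 736 CPM in TC Tn. B6 mice gave 385, 442, 372 and 431 CPM in Tfh and 729, 732, 708 and 735 CPM in Tn. Tfh were lower in all libraries, 1.83-fold in TC (adjusted p = 5.43e-09) and 1.78-fold in B6 (adjusted p = 9.44e-10). Phf11b, a PHD finger gene with close relatives nearby that make its count uncertain, had 50.7, 41.9 and 52.4 CPM in TC Tfh and 34.1, 29.7 and 36.4 CPM in TC Tn. Among B6 libraries there were 45.4, 54.5, 48.1 and 49.6 CPM in Tfh and 35.2, 40.0, 39.1 and 39.5 CPM in Tn. It was higher in Tfh, 1.45-fold in TC (adjusted p = 6.07e-05) and 1.29-fold in B6 (adjusted p = 0.000468). Ifi35 and Epsti1 were lower in Tfh in both strains, with log2 fold changes of -0.44 and -0.59 in TC and -0.43 and -0.63 in B6. Ifi44 had 4.11, 2.97 and 3.77 CPM in TC Tfh and 3.12, 1.78 and 3.40 CPM in TC Tn. In B6 it had 4.41, 7.64, 3.35 and 5.93 CPM in Tfh and 4.44, 8.44, 6.55 and 7.36 CPM in Tn. Both pairs of groups overlapped and neither comparison was called, though with mice as blocks Ifi44 was called lower in B6 Tfh (adjusted p = 0.0466). Xaf1 was not called between cell types (log2 -0.025 in TC and -0.052 in B6).

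Between the strains, called genes were more often lower than higher in TC. Isg15, Ifi27l2a, Rtp4 and Lgals3bp were lower in TC than in B6 in both cell types, while Trim30a, Samd9l and Xaf1 were higher. In Tfh, 4 of the 39 genes were higher and 10 lower in TC (35.9% called), against a background of 49.7% of all genes tested. In Tn, 6 were higher and 13 lower in TC (48.7% called), against 52% of all genes tested. The share called was below the background in Tfh and near it in Tn. Of the 39, 10.3% were called higher in TC in Tfh and 15.4% in Tn, against 24.2% and 25.9% of all genes, and 25.6% were called lower in Tfh and 33.3% in Tn, against 25.5% and 26.1%. The median log2 fold change of the 39 was -0.16 in Tfh and -0.17 in Tn, against -0.016 and -0.0070 over all genes. The number higher in Tn was not stable, at 3 without TC Tn 1 and 2 without TC Tn 4.

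Groups did not overlap for 14 genes in Tfh (3 higher and 11 lower in TC) and for 17 in Tn (4 higher and 13 lower). Over all genes, 50.2% did not overlap in Tfh (24.3% higher and 25.9% lower in TC) and 55.5% in Tn (27.4% higher and 28.1% lower). The Tfh and Tn libraries of a mouse share that mouse. Trim30a, Samd9l and Xaf1 were called higher in both cell types, and 9 genes were called lower in both, which is 9 of 10 in Tfh and 9 of 13 in Tn. These 9 were Ifit1, Isg15, Rtp4, Trim25, Parp9, Dtx3l, Ifi27l2a, Lgals3bp and Epsti1. None was called in opposite directions, and 18 of the 39 genes were called in neither cell type. Over all genes, 49.7% were called in Tfh and 52% in Tn, but calls shared by both cell types, or made in neither, were not counted. Neutrophil markers (7 genes, Ly6g without counts in every group) summed to 0 to 0.171 CPM in TC Tfh against 0.728 to 17.7 CPM in B6 Tfh. Their sums were 0.111 to 0.509 CPM in TC Tn against 0.585 to 4.8 CPM in B6 Tn. Only 2 of these 7 genes had enough counts to be tested, with 1 called lower in TC Tfh and 0 called between strains in Tn. Monocyte and macrophage markers (10 genes) summed to 3.77 to 7.03 CPM in TC Tfh against 9.2 to 16.6 CPM in B6 Tfh, and to 9.03 to 13.8 CPM in TC Tn against 8.95 to 13.8 CPM in B6 Tn. Other sums also did not overlap between the strains. The 2 CD8 T cell markers summed to 9.52 to 13.1 CPM in TC Tn against 17.1 to 20.2 CPM in B6 Tn, 4 NK cell markers (Ncr1 without counts) to 24.0 to 29.2 CPM in TC Tn against 13.6 to 20 CPM in B6 Tn, and 7 naive CD4 T cell markers to 7230 to 7890 CPM in TC Tn against 8450 to 9950 CPM in B6 Tn. The CD4 T cell sum was 4600 to 4680 CPM in TC Tn against 4880 to 5390 CPM in B6 Tn. The Tfh sum was 2070 to 2440 CPM in TC Tfh against 2460 to 2780 CPM in B6 Tfh, but its 7 genes were split, with 2 called higher and 3 lower in TC Tfh. The part of all these markers in the strain differences was not tested.

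**Figure D4:**
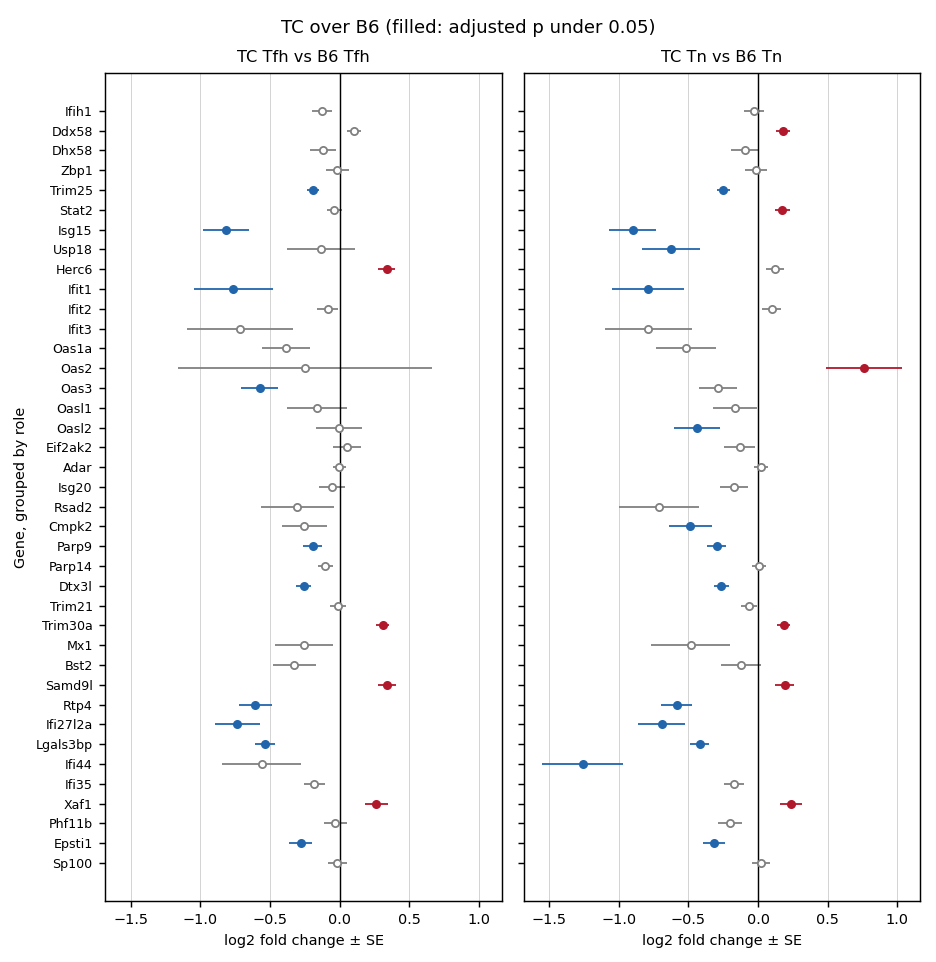
Log2 fold change of TC over B6 (horizontal axis, points with SE bars) for each of the 39 genes (grouped by role) in Tfh (left) and Tn (right). Filled points passed an adjusted p of 0.05, red higher and blue lower in TC. Most called genes lie left of 0 in both panels, and the called log2 values run from -0.82 to 0.34 in Tfh and from -1.26 to 0.76 in Tn.

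Isg15, the ubiquitin-like modifier, had 13.0, 13.3 and 10.7 CPM in TC Tfh against 21.3, 27.1, 17.0 and 21.2 CPM in B6 Tfh. It had 13.0, 8.08 and 10.9 CPM in TC Tn against 20.6, 22.3, 16.6 and 20.3 CPM in B6 Tn. Every TC library was below every B6 library of its cell type. TC were 1.76-fold lower in Tfh (log2 -0.82, SE 0.16, adjusted p = 0.000743) and 1.87-fold lower in Tn (log2 -0.90, SE 0.17, adjusted p = 0.000324). Its promoter stretch, shown above, held 3 ISRE core matches, more than any other printed stretch.

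Lgals3bp had 112, 109.6 and 104 CPM in TC Tfh against 152, 179, 144 and 153 CPM in B6 Tfh. It had 104, 89.3 and 104 CPM in TC Tn against 137, 126, 132 and 135 CPM in B6 Tn. The strains were apart in both cell types, and TC were 1.45-fold lower in Tfh (adjusted p = 1.07e-05) and 1.34-fold lower in Tn (adjusted p = 7.88e-05). Rtp4 had 15.9, 17.1 and 17.2 CPM in TC Tfh against 23.9, 30.9, 21.2 and 25.7 CPM in B6 Tfh. It had 27.1, 21.6 and 29.8 CPM in TC Tn against 39.6, 37.0, 39.5 and 41.3 CPM in B6 Tn. TC were lower without overlap, 1.52-fold in Tfh (adjusted p = 0.000470) and 1.5-fold in Tn (adjusted p = 0.000303). Ifi27l2a, whose values are given above, averaged 139 ± 10.2 CPM in TC Tfh and 231 ± 49.4 CPM in B6 Tfh (SD, n = 3 and 4). It averaged 80.2 ± 10.4 CPM in TC Tn and 129.7 ± 20.3 CPM in B6 Tn. No TC library reached a B6 library of its cell type, and TC were 1.66-fold lower in Tfh (adjusted p = 0.00289) and 1.61-fold lower in Tn (adjusted p = 0.00427).

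Smaller falls in TC were called for Trim25, Dtx3l, Parp9 and Epsti1. Trim25 had log2 fold changes of -0.19 in Tfh (SE 0.045, adjusted p = 0.00221) and -0.25 in Tn (SE 0.044, adjusted p = 0.000145). Dtx3l had log2 fold changes of -0.26 in Tfh (adjusted p = 0.000980) and -0.26 in Tn (adjusted p = 0.000631). Neither gene's strains overlapped in either cell type. Parp9, which overlaps Dtx3l and also contains the antisense gene Gm15564, had a log2 fold change of -0.30 in Tn (adjusted p = 0.00147). In Tfh its call (log2 -0.19, adjusted p = 0.0273) was lost in 7 of 15 alternatives, among them leaving out any of B6 Tfh 2, 3 or 4 or TC Tfh 2 or 4 (adjusted p 0.0524 to 0.203). Epsti1 had log2 fold changes of -0.28 in Tfh and -0.32 in Tn, and its Tfh call was lost without TC Tfh 1 (adjusted p = 0.0659).

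Ifit1 was 1.70-fold lower in TC Tfh than in B6 Tfh (log2 -0.76, SE 0.28, adjusted p = 0.0428), with all TC values below all B6 values. That call was lost in 9 of 15 alternatives, including the block on mouse (adjusted p = 0.0635) and leaving out any library of the comparison except B6 Tfh 3 (up to 0.155). In Tn it was 1.73-fold lower (adjusted p = 0.0228), and the call was lost without B6 Tn 1, TC Tn 2 or TC Tn 4 (adjusted p = 0.0549, 0.0890 and 0.0507). Ifit3 had log2 fold changes of -0.71 (SE 0.38) in Tfh and -0.79 (SE 0.31, adjusted p = 0.0504) in Tn, and with the block the Tn difference was called (adjusted p = 0.0175). Ifit2, in the same cluster, had log2 fold changes of -0.085 in Tfh (SE 0.074) and 0.099 in Tn (SE 0.068).

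The genes higher in TC formed a short list. Trim30a, a TRIM protein of a mouse gene family whose copies make its count uncertain, had 204, 206 and 216 CPM in TC Tfh against 162, 174, 161 and 176 CPM in B6 Tfh. It had 196, 196 and 213 CPM in TC Tn against 175, 179.5, 176 and 182 CPM in B6 Tn. TC were above B6 in every library, 1.24-fold in Tfh (adjusted p = 6.36e-05) and 1.14-fold in Tn (adjusted p = 0.00429). Samd9l had 288, 295 and 318 CPM in TC Tfh against 239.5, 250.0, 221 and 238 CPM in B6 Tfh. It had 389, 362 and 425 CPM in TC Tn against 313, 341, 345 and 373 CPM in B6 Tn. The Tfh groups were apart (1.26-fold higher in TC, adjusted p = 0.000476) and the Tn groups overlapped (1.14-fold, adjusted p = 0.0228), with the Tn call lost without B6 Tn 1, TC Tn 1 or TC Tn 4. Without TC Tn 4 its log2 fold change was 0.13 (adjusted p = 0.161), without TC Tn 1 the adjusted p was 0.0510, and without B6 Tn 1 it was 0.0761.

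Xaf1, which encodes a partner of the apoptosis inhibitor XIAP, had 38.7, 46.9 and 42.5 CPM in TC Tfh against 33.3, 36.5, 33.4 and 38.9 CPM in B6 Tfh. It had 45.2, 38.7 and 46.1 CPM in TC Tn against 36.2, 36.3, 34.1 and 40.8 CPM in B6 Tn. Ranges overlapped slightly in both cell types, and TC were 1.2-fold higher in Tfh (adjusted p = 0.0132) and 1.18-fold higher in Tn (adjusted p = 0.0227). The Tfh call was lost without TC Tfh 2 (adjusted p = 0.0689) and the Tn call without B6 Tn 3, TC Tn 1 or TC Tn 4 (adjusted p = 0.0708, 0.0928 and 0.115). Herc6 had 58.8, 70.3 and 69.1 CPM in TC Tfh against 48.9, 53.8, 51.6 and 54.7 CPM in B6 Tfh. It had 68.0, 66.7 and 68.6 CPM in TC Tn against 61.0, 65.7, 58.7 and 63.7 CPM in B6 Tn. The strains were apart in both cell types, but only the Tfh difference was called (1.26-fold higher in TC, adjusted p = 0.000276), with the Tn one at log2 0.12 (adjusted p = 0.113).

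In Tn alone, Ddx58, Stat2 and Oas2 were called higher in TC. Ddx58 was higher by log2 0.18 (adjusted p = 0.00691) and Stat2 by 0.17 (adjusted p = 0.0128). The Stat2 call was lost without TC Tn 4 (adjusted p = 0.0562). Oas2 was 1.70-fold higher (log2 0.76, SE 0.27, adjusted p = 0.0357), with all TC Tn libraries above all B6 Tn libraries. The Oas2 call was lost in 9 of 15 alternatives, with DESeq2 giving an adjusted p of 0.158 and leaving out B6 Tn 2, B6 Tn 3, TC Tn 1, TC Tn 2 or TC Tn 4 giving 0.0579 to 0.111. Of the genes of that family described here, no other was called higher in TC. Oas1c, a family gene on the wider list given below, was called higher in TC in both cell types. Oasl2 was called lower in TC Tn (log2 -0.44, adjusted p = 0.0368) and lost that call in 8 of 15 alternatives, with adjusted p up to 0.162 without TC Tn 2 and also above the threshold without TC Tn 1, B6 Tn 2, B6 Tn 3 or B6 Tn 4. Oas3 was lower in TC Tfh (log2 -0.57, SE 0.14, adjusted p = 0.00300), at 27.5 to 31.1 CPM against 35.6 to 52.8 CPM in B6 Tfh. Oas1a had log2 fold changes of -0.38 in Tfh and -0.52 in Tn, and with mice as blocks the Tfh difference was called (adjusted p = 0.0353).

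Ifi44 had the largest called fall in TC Tn. With 3.12, 1.78 and 3.40 CPM in TC Tn against 4.44, 8.44, 6.55 and 7.36 CPM in B6 Tn, it was 2.39-fold lower (log2 -1.26, SE 0.29, adjusted p = 0.00185) without overlap. In Tfh its log2 fold change was -0.56 (SE 0.28, adjusted p = 0.116). Cmpk2 was lower in TC Tn (log2 -0.49, adjusted p = 0.0141), a call lost without TC Tn 2 (adjusted p = 0.0785). Usp18 was lower in TC Tn (log2 -0.62, adjusted p = 0.0249), and lost that call without B6 Tn 2, B6 Tn 4, TC Tn 2 or TC Tn 4 (adjusted p 0.0505 to 0.0975).

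The difference between the strains in their Tfh to Tn ratio, tested as an interaction, was called for 0 of the 39 genes, against 2.32% of all genes tested (0.953% higher and 1.37% lower). DESeq2 also called 0, and 2 of the 39 (Stat2 and Herc6) had an unadjusted p under 0.05 in edgeR, against 14.6% of all genes. Stat2 had an interaction of log2 -0.21 (SE 0.077, edgeR adjusted p = 0.191), and it was called without B6 Tn 4 (adjusted p = 0.0481). Herc6 had one of 0.22 (SE 0.088, adjusted p = 0.254). Larger values were less precise, with -1.01 for Oas2 (SE 0.94) and 0.70 for Ifi44 (SE 0.41). So for the genes called above in a single strain or a single cell type, the difference from the other one did not pass its own test, which does not show that the 2 were alike.

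In some libraries most of the 39 genes deviated from their group the same way. In B6 Tfh, library 2 was the highest of its group for 29 of the 39 (74.4%, against 30.0% of all genes tested), with a median deviation of 0.26 on the log2 scale from the mean of its group's other libraries. In the same group, library 3 was the lowest for 23 (59.0%, against 19.2% of all genes). In TC Tn, library 2 was the lowest for 36 (92.3%, against 30.9% of all genes), with a median deviation of -0.23. Library 4 of TC Tn was the highest for 23 (59.0%, against 33.1%) and library 4 of B6 Tn for 22 (56.4%, against 24.7%). B6 Tfh 2 also had the highest summed neutrophil markers of the 14 libraries, 17.7 CPM, and TC Tn 2 had the smallest total of the Tn libraries, 16285700 counts. The part of either in these deviations was not tested.

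**Figure D5:**
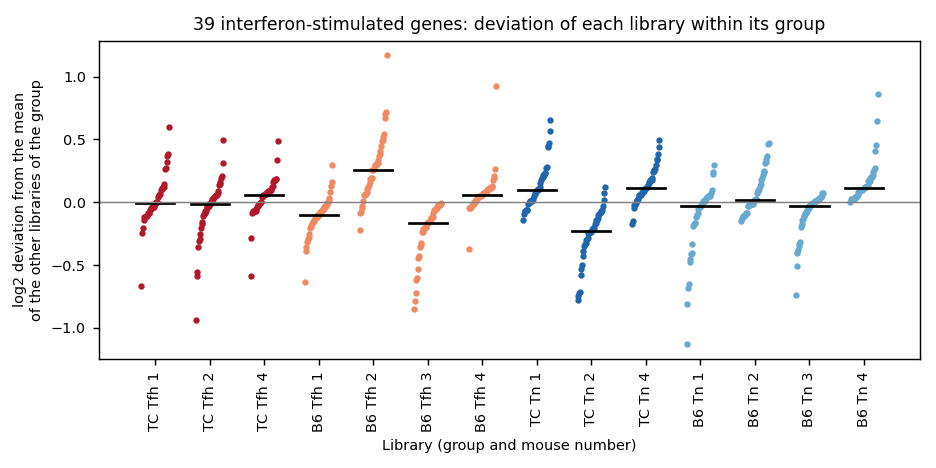
Deviation of each of the 39 genes (points) in each library from the mean of the other libraries of its group, on the log2 scale, with the median as a line. The cloud of B6 Tfh 2 lies mostly above 0 (median 0.26) and that of TC Tn 2 mostly below (median -0.23), while medians of the other libraries lie between -0.17 and 0.12.

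With B6 Tfh 2 and TC Tn 2 both left out, TC Tfh against B6 Tfh gave 5 genes higher and 8 lower, and TC Tn against B6 Tn gave 5 higher and 12 lower. Over all genes the same setting gave 3069 higher and 2919 lower in Tfh, and 3139 higher and 3103 lower in Tn. Tfh against Tn in TC then gave 8 of the 39 genes higher and 19 lower, against 4612 and 3882 of all genes, and in B6 8 higher and 23 lower, against 5062 and 4320 of all genes. Members differed in how far replicates spread. Averaged over the 4 groups, the coefficient of variation was 2.86% for Trim25 and 3.06% for Adar, but 37.9% for Oas2, 29.6% for Ifit3, 26.9% for Ifi44, 26.8% for Rsad2 and 24.6% for Ifit1.

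Genes upstream in the pathway were described from lists of names. Irf7, the transcription factor that amplifies interferon production, was lower in Tfh than in Tn, by log2 -0.72 in TC (adjusted p = 0.000144) and -0.62 in B6 (adjusted p = 0.000106). Irf9 was lower in Tfh too, by log2 -0.56 in TC and -0.37 in B6, as was the receptor chain Ifnar1, by -0.44 and -0.56. Between strains, Irf7 was lower in TC Tfh (log2 -0.32, edgeR adjusted p = 0.0367) and was not called in Tn (log2 -0.22, adjusted p = 0.122). Irf9 was also lower in TC Tfh (log2 -0.26, adjusted p = 0.00112) and not called in Tn (log2 -0.067, adjusted p = 0.336). Ifnar1 was called in neither cell type.

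Of the 18 genes of the receptor and JAK-STAT relay, 6 were higher and 8 lower in Tfh in TC (77.8% called), and 5 were higher and 8 lower in B6 (72.2%), against the 66.1% and 70.3% of all genes given above. Between strains, 2 were higher and 6 lower in TC Tfh (44.4% called), and 2 were higher and 5 lower in TC Tn (38.9%), against 49.7% and 52% of all genes. Of 17 tested genes of nucleic acid sensing upstream of interferon, 7 were higher and 5 lower in Tfh in TC (70.6%), and 6 were higher and 4 lower in B6 (58.8%). Of the same 17, 4 were higher and 5 lower in TC Tfh than in B6 Tfh (52.9%), and 3 were higher and 4 lower in TC Tn than in B6 Tn (41.2%). The shares of both lists lay on either side of those of all genes.

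In a wider list of 46 tested interferon-stimulated genes, which also holds Irf7 and Irf9, 10 were higher and 23 lower in Tfh in TC and 9 were higher and 24 lower in B6 (71.7% called in each), which is close to the share of all genes. In that list 7 were higher and 16 lower in TC Tfh than in B6 Tfh (50%). In Tn, 9 were higher and 17 lower in TC than in B6 (56.5%). The share called in either direction was again close to all genes, but fewer were higher than lower in each comparison. All genes gave 4531 higher and 4348 lower in Tfh in TC, and 4959 and 4476 in B6. Between strains they gave 3249 higher and 3420 lower in TC Tfh, and 3477 and 3505 in TC Tn. Of 19 tested genes induced mainly by interferon-gamma, such as the Gbp and Irg GTPases, 4 were higher and 7 lower in TC Tfh than in B6 Tfh (57.9%), and 2 were higher and 11 lower in TC Tn than in B6 Tn (68.4%). Between cell types, 5 of these 19 were higher and 10 lower in Tfh in TC (78.9%), and 4 were higher and 12 lower in B6 (84.2%). Their median log2 fold change between strains was -0.29 in Tfh and -0.29 in Tn, against -0.016 and -0.0070 over all genes. No list was tested as a whole.

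Among the interferon genes that were listed, few counts fell on Ifnab and Ifnz. Summed over the 3 TC or 4 B6 libraries of a cell type, Ifnab had 0 counts in TC Tfh, 0 in B6 Tfh, 1 in TC Tn and 4 in B6 Tn, and Ifnz had 6, 15, 1 and 4 in the same groups. Ifng, the gene of interferon-gamma, had 1706 counts over TC Tfh and 1744 over B6 Tfh, against 13 over TC Tn and 8 over B6 Tn. As these sums cover 3 TC but 4 B6 libraries, they do not compare the strains. When tested, Ifng was called higher in TC Tfh than in B6 Tfh (log2 0.57) and was not called between strains in Tn (log2 1.12). Other interferon ligand genes on the list were not analysed here.

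The Sle intervals lie on chromosomes 1, 4 and 7, and 6 of the 39 genes are on these chromosomes (Sp100 on 1, Isg15 and Ddx58 on 4, Isg20, Trim21 and Trim30a on 7). Of these 6, 1 was higher and 1 lower in TC Tfh than in B6 Tfh (Trim30a and Isg15), and 2 were higher (Trim30a and Ddx58) and 1 lower (Isg15) in TC Tn than in B6 Tn. Of the 33 on other chromosomes, 3 were higher and 9 lower in TC Tfh, and 4 were higher and 12 lower in TC Tn. Over all genes tested, on any chromosome, 49.7% were called between strains in Tfh and 52% in Tn. The calls of all genes were not counted by chromosome. Whether any of the 6 lies inside an interval was not tested.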

How the data were processed

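RNA was extracted with RNeasy columns and made into TruSeq stranded libraries, per the labels' protocols. The authors deposited 1 table of raw read counts per gene symbol for all 14 libraries. Per the submitters' processing notes, STAR 2.7, the mm10 build and DESeq2 were used. How reads were assigned to genes, with which annotation and whether by strand, was not given in the sources used here. Reads of overlapping genes on opposite strands, or of near-identical copies, may therefore be shared or lost.

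The counts were tested with edgeR 4.0.16 (R 4.3.3): genes passing filterByExpr at a count minimum of 10, TMM scaling, 4 group means over all 14 libraries, robust quasi-likelihood tests and Benjamini-Hochberg adjustment over the 13427 genes tested. A call is an adjusted p under 0.05. CPM use TMM-scaled totals. The 5 comparisons were 2 between strains, 2 between cell types and their interaction. Per-length levels and gene spans come from GENCODE M21 (GRCm38, the assembly of mm10), promoter letters from RefSeq. Alternatives were other size factors, filters, DESeq2 1.42.0, fits to the compared groups only, each library left out, and mouse as a block. For cell types the block was a fixed term in edgeR, and for strains a random one in limma 3.58.1. Leaving out B6 Tfh 2 and TC Tn 2 together was chosen after seeing the data. The model was also run on simulated data with few changed genes and no pairing of libraries by mouse, unlike these data. That run is not used here to judge the calls.

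Both cell types came from each mouse's spleen, so same-numbered libraries of a strain are paired. Their deviations from group means correlated at 0.0395 to 0.299. For B6 replicate 3 this value (0.0395) was below the highest one with another B6 mouse (0.0501). For every other replicate it was above. No 2 replicates agreed within sampling noise (chi-square per degree of freedom 5.31 to 20.3). Counting intervals and the floor of 3 counts cover counting error only.

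Members and lists were chosen with earlier results of these data known. Library values are given for up to 6 members called in each direction with the smallest adjusted p in each comparison and for the first member of each role group, the rest by ranges; outside the members Irf7, Irf9 and Ifnar1 were named. One further gene that this rule names is not reported here.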

Additional observations from a re-analysis of the deposited data

Results flagged for a closer look

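Of 78 sets of 4 values (each of the 39 genes in each of the 2 B6 groups), 2 had a library far from the others by Dixon's criterion, and chance gives about 1 in 20. Ifit2 in B6 Tn 2 was the lowest of its group at 102.1 CPM, with the other 3 libraries between 107.9 and 108.9 CPM. Epsti1 in B6 Tn 2 was the lowest of its group at 100.8 CPM, with the others between 107.5 and 108.5 CPM. In both, the distance is small and the other 3 values lie close together. The TC groups have 3 libraries and were not screened.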

How the results depend on the processing

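Over 324 recomputed counts of calls, of members and of all genes, 308 stayed within 1.5 times the reported count and 16 did not. Among them are the interaction counts of members, which were 0 except for 1 lower without B6 Tn 4. The 308 therefore do not measure how stable the member calls were. No called member changed sign. Leaving out 1 library at a time gave 2 to 6 members higher and 9 to 17 lower in TC Tn against B6 Tn, and 0 to 1 lower in the interaction, where all genes gave 74 to 158 higher and 85 to 190 lower in place of 128 and 184. For the interaction over all genes, DESeq2 gave 269 higher, mouse as a replicate block 302 higher and 434 lower, and leaving out B6 Tfh 2 and TC Tn 2 together 77 higher and 87 lower. The cause was not tested. Calls held in every alternative for 10 of 14 members in TC Tfh against B6 Tfh, 11 of 19 in TC Tn against B6 Tn, 24 of 26 in TC Tfh against TC Tn and 25 of 30 in B6 Tfh against B6 Tn. Beyond the calls named beside their results, the block changed no other call of a member. With 3 TC mice and totals of 15162309 to 20191558 counts, low genes such as Oas2 in Tfh are measured least precisely.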
